A study of Mus musculus with 768 samples.

Results

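The genes described here are 43 genes that copy DNA in S phase, taken by name from the 23127 genes of a single-cell count table, and followed across 8 plates of mouse thymocytes. All cells came from C57BL/6 mice aged 6 to 8 weeks. The mice were wild type (WT), Tcf7-/- (labelled as lacking Tcf7, the gene of the transcription factor TCF1), Vav-cre; Tcf7fl/fl, or Lck-cre; Tcf7fl/fl. Vav-cre is a recombinase transgene active in blood cells at large and Lck-cre one active in T-cell precursors, so in both the deletion depends on the driver and can miss cells. Cells lacking lineage markers, CD4 and CD8 were sorted through 2 gates. One, DN1, selected cells with CD44 and without CD25, and the other, DN2-3, selected cells that display CD25. A plate of 96 cells exists for each gate in WT, Tcf7-/- and Vav-cre, while Lck-cre has 2 plates, both of DN2-3. A plate is called a library here. The labels name no animals. Genotypes are therefore compared without a test, and the difference between both Lck-cre plates is the only measure of the spread between like libraries.

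DNA replication starts when a ring of 6 related MCM proteins is loaded at origins by Cdc6 and Cdt1. Cdc45 and the GINS complex turn the ring into a moving helicase, polymerases follow it on a clamp made of PCNA, and enzymes of nucleotide synthesis supply the building blocks. Most of these genes are transcribed as cells pass from G1 into S phase, under control of the E2F factors and the RB proteins that hold E2F back. In the thymus, DN thymocytes divide in the early stages and again once a rearranged T-cell receptor beta chain pairs with the pre-T-cell receptor chain Ptcra, so these genes mark dividing cells among resting ones.

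The promoters of the replication genes were searched for the letters that E2F factors are known to bind. RefSeq promoter windows (GRCm38.p6, 250 bases before to 50 bases after the start) were matched for 36 of the 43 genes, in 41 windows. TTTGGCGC, TTTCCCGC, TTTCGCGC or TTTGCCGC, on either strand, stood in 12 of the 41 windows (29.3%), against 2.26% of all 32851 windows and 3.85% of the 26 windows of 29 mitosis genes. The 12 genes with a match were Mcm3, Mcm5, Mcm6, Mcm7, Cdc6, Cdt1, Pola1, Pold1, Rfc3, Lig1, Uhrf1 and Clspn. The next sequences are the 200 bases before the start of 3 of them, with all bases of a match on either strand in capitals. Each stretch lies outside the annotated span of its own gene. Mcm6 is at chr1:128359706-128359905, minus strand, Mcm5 at chr8:75109309-75109508, plus strand, and Pola1 at chrX:93632156-93632355, minus strand.
Mcm6: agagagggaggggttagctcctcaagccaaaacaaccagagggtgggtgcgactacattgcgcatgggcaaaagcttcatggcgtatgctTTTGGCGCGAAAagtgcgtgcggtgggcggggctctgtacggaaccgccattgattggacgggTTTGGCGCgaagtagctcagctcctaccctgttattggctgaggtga
Mcm5: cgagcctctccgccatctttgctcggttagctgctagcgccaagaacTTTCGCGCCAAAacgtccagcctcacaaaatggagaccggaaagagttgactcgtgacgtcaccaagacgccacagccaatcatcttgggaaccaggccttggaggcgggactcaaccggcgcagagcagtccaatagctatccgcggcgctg
Pola1: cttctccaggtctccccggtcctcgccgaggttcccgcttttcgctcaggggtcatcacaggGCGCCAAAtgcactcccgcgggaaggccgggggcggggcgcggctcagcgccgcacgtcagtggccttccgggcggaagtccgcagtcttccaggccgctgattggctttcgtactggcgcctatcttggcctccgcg
Mcm6 carries the letters at 2 places, starting 110 and 47 bases before the start, and the match in Pola1 lies on the opposite strand. In Mcm5, and at the first place in Mcm6, matches on both strands overlap. A short stretch around the match shows the same core in 4 further genes, Mcm7, Rfc3, Uhrf1 and Cdt1.
Mcm7: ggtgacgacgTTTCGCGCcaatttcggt
Rfc3: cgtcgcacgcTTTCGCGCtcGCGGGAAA
Uhrf1: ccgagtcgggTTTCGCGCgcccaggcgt
Cdt1: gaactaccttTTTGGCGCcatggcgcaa
Mitosis genes, which are switched on later in the cycle, carried other letters. The CHR letters TTTGAA were in 76.9% of mitosis windows, 9.76% of replication windows and 17.9% of all windows. CCAAT was in 84.6%, 56.1% and 37.4%, in the same order. ATCAAAG or TTCAAAG, letters of the kind that TCF1 binds, were in 15.4% of mitosis windows, 4.88% of replication windows and 8.65% of all windows. Only Fbxo5 and Fen1 held such letters among the replication windows. Read on the other strand, TTCAAAG holds TTTGAA, so both matches count as CHR letters as well. They are shown here with the TCF letters in capitals.
Fbxo5: gggcaccaaaTTCAAAGattttaaaag
Fen1: cgcgaaggttTTCAAAGtgcaccctgt
These matches describe letters in a window and do not show binding, and motifs of different length are met by chance at different rates.

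**Figure D1:**
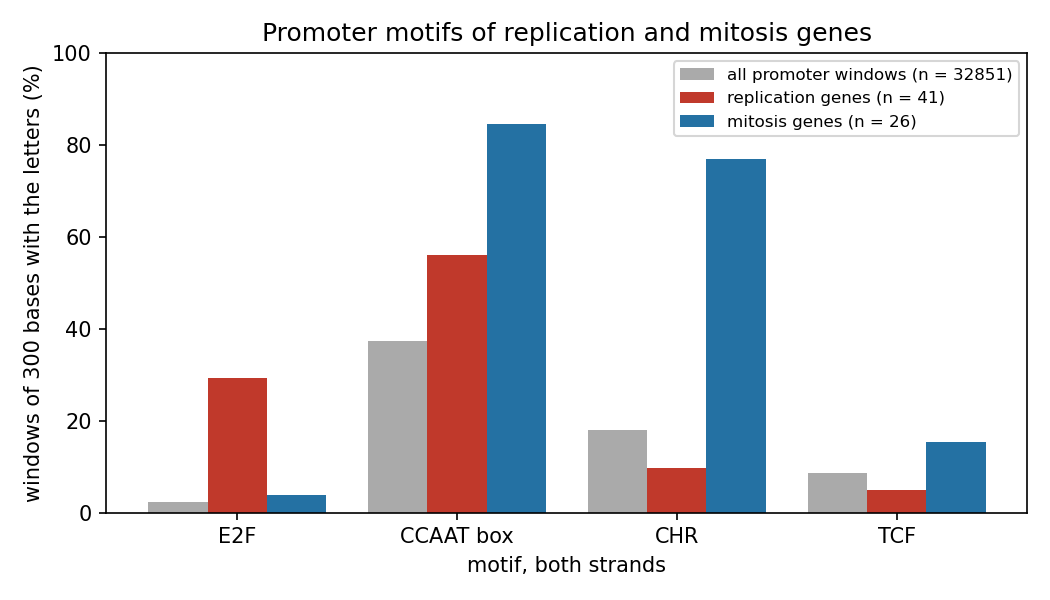
Share of 300-base promoter windows (vertical axis, %) with E2F-type, CCAAT, CHR or TCF-type letters on either strand, for all 32851 windows, 41 windows of replication genes and 26 windows of mitosis genes. The E2F-type letters stand in 29.3% of replication windows and 3.85% of mitosis windows, and the CHR letters in 9.76% and 76.9%.

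Of 768 cells, 675 had at least 1000 detected genes and were kept, 58 to 96 in each library. Counts were summed over the kept cells and are given in CPM, counts scaled to a library total of 1000000. Library totals ran from 1547512 (Vav-cre DN1) to 8371808 (Tcf7-/- DN2-3). CPM has no gene length term, so levels are compared across libraries and not between genes. Intervals are 95% and cover counting error only, since amplified copies of a molecule are not independent. Tcf7 was at 862 CPM in WT DN2-3 and 122 CPM in Tcf7-/- DN2-3. The libraries labelled Vav-cre (964 CPM in DN2-3) and Lck-cre (762 and 658 CPM) held most or all of the WT level, and their values are those of libraries under their labels. Il2ra, which encodes CD25, was at 225 to 419 CPM in the DN2-3 libraries. Cd44 was at 193 to 269 CPM in the DN1 libraries and at 0 to 4.42 CPM in the DN2-3 libraries. The WT DN1 library held more natural killer (NK) than progenitor signal, with 9 of 10 NK markers present at a summed 5663 CPM (Ncr1 at 0) and 6 of 8 early progenitor markers at 183 CPM (Cd34 and Mpo at 0).

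The replication genes were expressed above all in the DN2-3 gate, and within it most in the Tcf7-/- library. In the DN1 gate their summed level was 1683 CPM in WT, 1890 CPM in Tcf7-/- and 1907 CPM in Vav-cre. In DN2-3 it was 4221 CPM in WT, 6754 CPM in Tcf7-/-, 3673 CPM in Vav-cre, and 6386 and 5491 CPM on Lck-cre plates 1 and 2. Every DN2-3 library lay above every DN1 library, and Vav-cre and WT were the lowest of the DN2-3 libraries.

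A sum is weighted towards cells with many counts, so each cell was also given the same weight. The mean level per cell was then 1285, 2121 and 1486 CPM in WT, Tcf7-/- and Vav-cre DN1, and 2841, 5615, 3327, 4802 and 4075 CPM in WT, Tcf7-/-, Vav-cre and both Lck-cre plates of DN2-3. The median cell stood at 1041, 1607 and 1157 CPM in DN1 and at 2031, 4113, 2382, 3309 and 2567 CPM in DN2-3. With equal weights WT was the lowest DN2-3 library and Vav-cre lay above it, the reverse of their order in the sums. In WT DN2-3 the 3 cells with the most counts of these genes held 37.2% of them, against 16.7% in Tcf7-/- DN2-3.

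**Figure D2:**
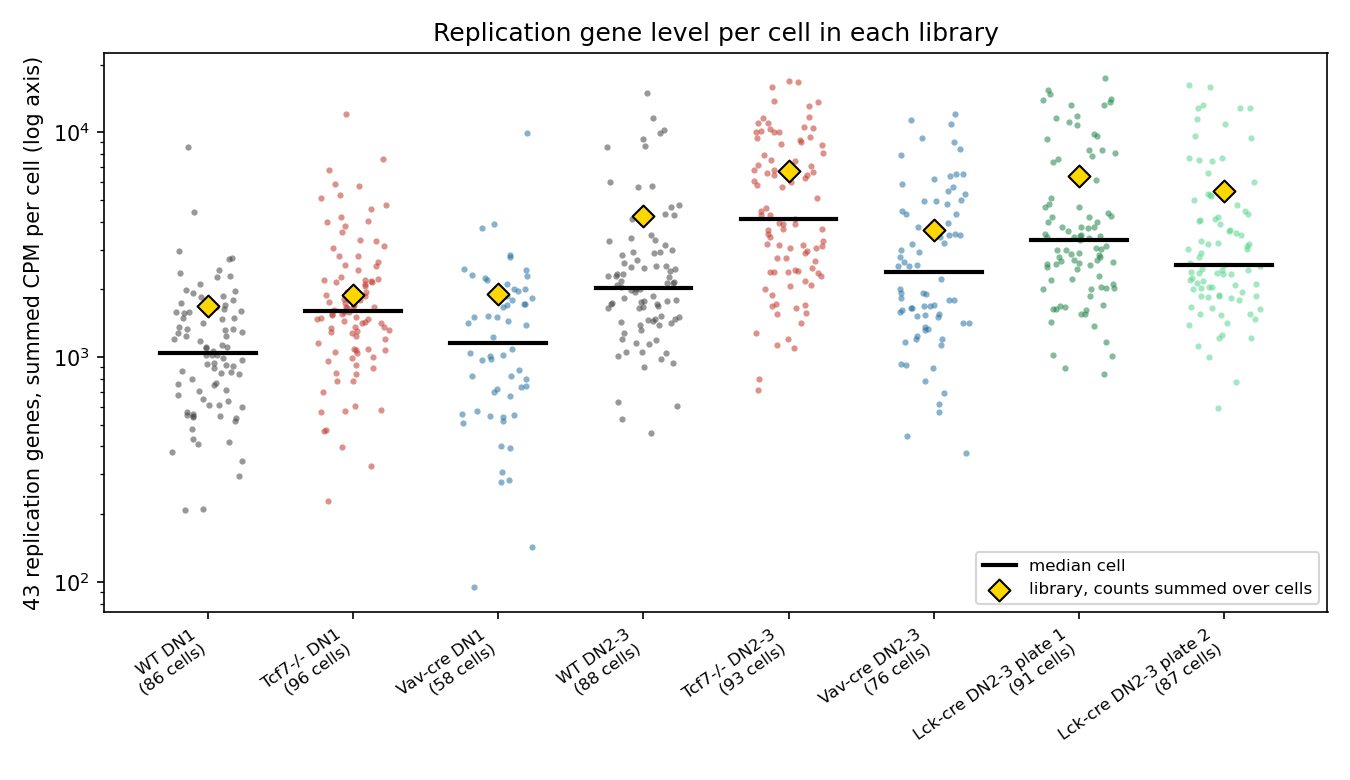
Summed CPM of the 43 replication genes in each kept cell (points, log axis), with the median cell (bar) and the level of the library with counts summed over cells (diamond). The median cell is at 2031 CPM in WT DN2-3 and 4113 CPM in Tcf7-/- DN2-3, and in WT and Vav-cre DN1 the diamond lies above the median and single cells reach 8629 and 9898 CPM.

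Comparing the gates within WT, every measured replication gene was higher in DN2-3 in summed counts, though for some the limit used fixed this. A gene was taken as measured if it reached 10 CPM in either library compared, and log2 ratios use CPM plus a pseudocount of 10, which understates changes of low genes. Cdc6, Mcm10, Gins2, Pola1, Pole, Uhrf1, Chek1, Esco2 and Rad51ap1 were under 10 CPM in WT DN1. They were measured only through WT DN2-3 and had to be higher there. In the other comparisons too, a gene under 10 CPM in WT entered only through the library set against it. Of 40 measured replication genes, 19 exceeded WT DN1 by at least 2-fold in WT DN2-3, against 16.3% of all measured genes, and 0 were 2-fold lower, against 11.7%. Their median log2 ratio was 1.00, and that of all genes 0.15. With cells weighted equally the median was 0.95, 18 of 37 genes were 2-fold higher, against 18.4% of all genes, and Mcm5 (-0.19) and Cdt1 (-0.10) lay below 0. These libraries differ in cell type as well as stage, as the NK markers above show, and the part of cell type in the difference was not tested.

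The genes of the helicase ring showed this step in summed counts, and 5 of the 6 also with cells weighted equally. Mcm6 was at 98.3, 123 and 119 CPM in WT, Tcf7-/- and Vav-cre DN1, and at 319, 427, 266, 501 and 336 CPM in WT, Tcf7-/-, Vav-cre and both Lck-cre plates of DN2-3. All DN2-3 values exceeded all DN1 values. The share of all genes that separate the gates in this way is not given here. This and later statements on overlap therefore describe single genes only. Mcm7 was at 36.8, 66.4 and 84 CPM in the DN1 libraries and at 165, 210, 120, 265 and 304 CPM in the DN2-3 libraries, in the same order. Its WT DN2-3 to WT DN1 fold was 4.48 (interval 3.89 to 5.17), the highest of the 6 ring genes, and Mcm5, at 103 against 72.1 CPM, had the lowest log2 ratio among them, 0.47. Per cell Mcm5 was not higher in WT DN2-3, at 47.2 CPM with equal weights against 55.1 CPM in WT DN1, and it was found in 27.3% of cells against 34.9%. Mcm2 was at 58.1 to 75 CPM in DN1 and 95.3 to 181 CPM in DN2-3, and Mcm3 at 29 to 48.1 and 86 to 181 CPM. Mcm4 overlapped between the gates, at 56.5 to 96.3 and 73.4 to 161 CPM. In Mcm7, 12.6% of the annotated exon bases are shared with neighbouring genes, and use of strand in the counting is not given in the sources used here.

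Genes that load and restrain the ring followed. Gmnn encodes geminin, which blocks Cdt1 after origins have fired. It was at 22.9, 43.5 and 46.5 CPM in the DN1 libraries and at 92.4, 221, 94.3, 182 and 137 CPM in the DN2-3 libraries. Every DN2-3 library was above every DN1 library, with Tcf7-/- the highest. Cdc6, the loader, was at 1.83 CPM in WT DN1, from 1 cell, and at 32.8 CPM in WT DN2-3. Cdt1 was at 50.2 and 82.2 CPM in these libraries. The loader gene was thus the rarer in WT DN1, in 1.16% of cells against 33.7% for Cdt1. Among the genes that activate the ring, Gins2, a GINS subunit, was at 8.72, 6.49 and 0.646 CPM in DN1 and at 27.5, 46.2, 37.7, 44.2 and 54.8 CPM in DN2-3. Cdc45, the GINS partner, was at 13.9 CPM in WT DN1, 97% of it in 1 cell, and at 12.6 to 33.4 CPM in DN2-3. Gins1 was at 11 CPM in WT DN1 and 24.1 to 50.3 CPM in DN2-3, and Mcm10, which also helps to start the helicase, at 0.281 and 9.81 to 31.5 CPM. Gins2 shares 67.3% of its exon bases with Gse1 on the other strand, and reads of these genes cannot be told apart without strand.

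Polymerase and clamp genes varied in how far they differed between the gates. Pola1, the catalytic subunit of polymerase alpha, which starts each new strand, was at 3.66, 16.8 and 11 CPM in the DN1 libraries and at 43.2, 60.7, 14.6, 21.9 and 73.8 CPM in the DN2-3 libraries. The last 2 values are both Lck-cre plates, whose fold was 3.37 (interval 2.77 to 4.12), beside 1.40 (interval 1.20 to 1.66) for Tcf7-/- DN2-3 against WT DN2-3. With equal weights the log2 ratio between the plates was 0.76, beside 1.39 in summed counts. Pola2, its partner subunit, was at 115, 184 and 206 CPM in DN1 and at 207, 186, 127, 243 and 297 CPM in DN2-3. Both gates overlapped for Pola2, which had a count in 72.1% of WT DN1 cells. Pcna, the sliding clamp, was at 179, 125 and 182 CPM in DN1 and at 354, 546, 302, 478 and 448 CPM in DN2-3, with no overlap. Prim1, the primase that lays the RNA primer, was at 31.5 to 44.6 CPM in DN1 and 63.2 to 114 CPM in DN2-3, and Pold1, of the lagging-strand polymerase, at 14.2 to 39.4 and 49.1 to 75.7 CPM. Neither overlapped between the gates. The clamp loader genes Rfc2, Rfc4 and Rfc5 were among the 5 lowest log2 ratios between the WT gates, at 0.34, 0.43 and 0.51.

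Among the genes of strand protection and joining, Rpa2, a subunit of the complex that coats single-stranded DNA, was at 52, 61.1 and 28.4 CPM in DN1 and at 109, 194, 123, 253 and 145 CPM in DN2-3. Lig1, the ligase that joins Okazaki fragments, was at 64.8, 57.7 and 36.2 CPM in DN1 and at 185, 290, 108, 269 and 189 CPM in DN2-3. Rpa1, the large subunit, was at 22.8 to 33.9 CPM in DN1 and 44.7 to 81.5 CPM in DN2-3. None of these 3 genes overlapped between the gates, beside a share of all genes that is not given here. On Lck-cre plate 1 a single cell held 43% of the Lig1 counts. Fen1, the flap nuclease, did not reach 2 CPM in any library, and 84.2% of its exon bases are shared with Tmem258 and Gm10143 on the other strand. The part of this overlap in the low counts was not tested.

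Nucleotide supply genes were among the most different between the gates, with a median log2 ratio of 1.60 over 5 genes in WT. Dut encodes the enzyme that keeps uracil out of DNA. It was at 142, 152 and 116 CPM in the DN1 libraries and at 449, 994, 450 and, for both Lck-cre plates, 877 and 666 CPM in the DN2-3 libraries. The Tcf7-/- DN2-3 level was the highest and was found in 97.8% of cells. Tk1, thymidine kinase, was at 22.6 to 43.4 CPM in DN1 and 64.4 to 131 CPM in DN2-3, without overlap. Rrm1, the large subunit of ribonucleotide reductase, was at 16.4 CPM in WT DN1 and 87.4 CPM in WT DN2-3, a fold of 5.31 (interval 4.32 to 6.57).

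In the group that copies chromatin and guards forks, Uhrf1 had the highest log2 ratio of all replication genes between the WT gates, 3.57. Uhrf1 brings the maintenance DNA methyltransferase to newly copied DNA. It was at 8.86, 24.8 and 27.1 CPM in DN1 and at 213, 231, 125, 341 and 268 CPM in DN2-3, and it was found in 3.49% of WT DN1 and 76.1% of WT DN2-3 cells. Slbp, which binds histone messages, was at 181, 141 and 75.6 CPM in DN1 and at 260, 395, 148, 289 and 294 CPM in DN2-3, where the Vav-cre value lies below that of WT DN1. Chaf1b, of the histone chaperone CAF-1, was at 9.05 to 30.5 CPM in DN1 and 57.7 to 115 CPM in DN2-3. Ung, which cuts uracil out of DNA, was at 26.6, 29.3 and 19.4 CPM in DN1 and at 57.3, 82.3, 34.9, 80.2 and 64.4 CPM in DN2-3. Esco2, which makes cohesion between sister chromatids, was at 0.141 CPM in WT DN1 (1 count) and 46 CPM in WT DN2-3, and 1 cell held 83.8% of its counts on Lck-cre plate 1. The checkpoint kinase gene Chek1 and the repair gene Rad51ap1 had 0 counts in WT DN1 and were at least 25.3-fold and 32.4-fold higher in WT DN2-3, with 3 counts assumed for a library that has 0. The lower limits of their counting intervals were 19.8 and 25.6.

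**Figure D3:**
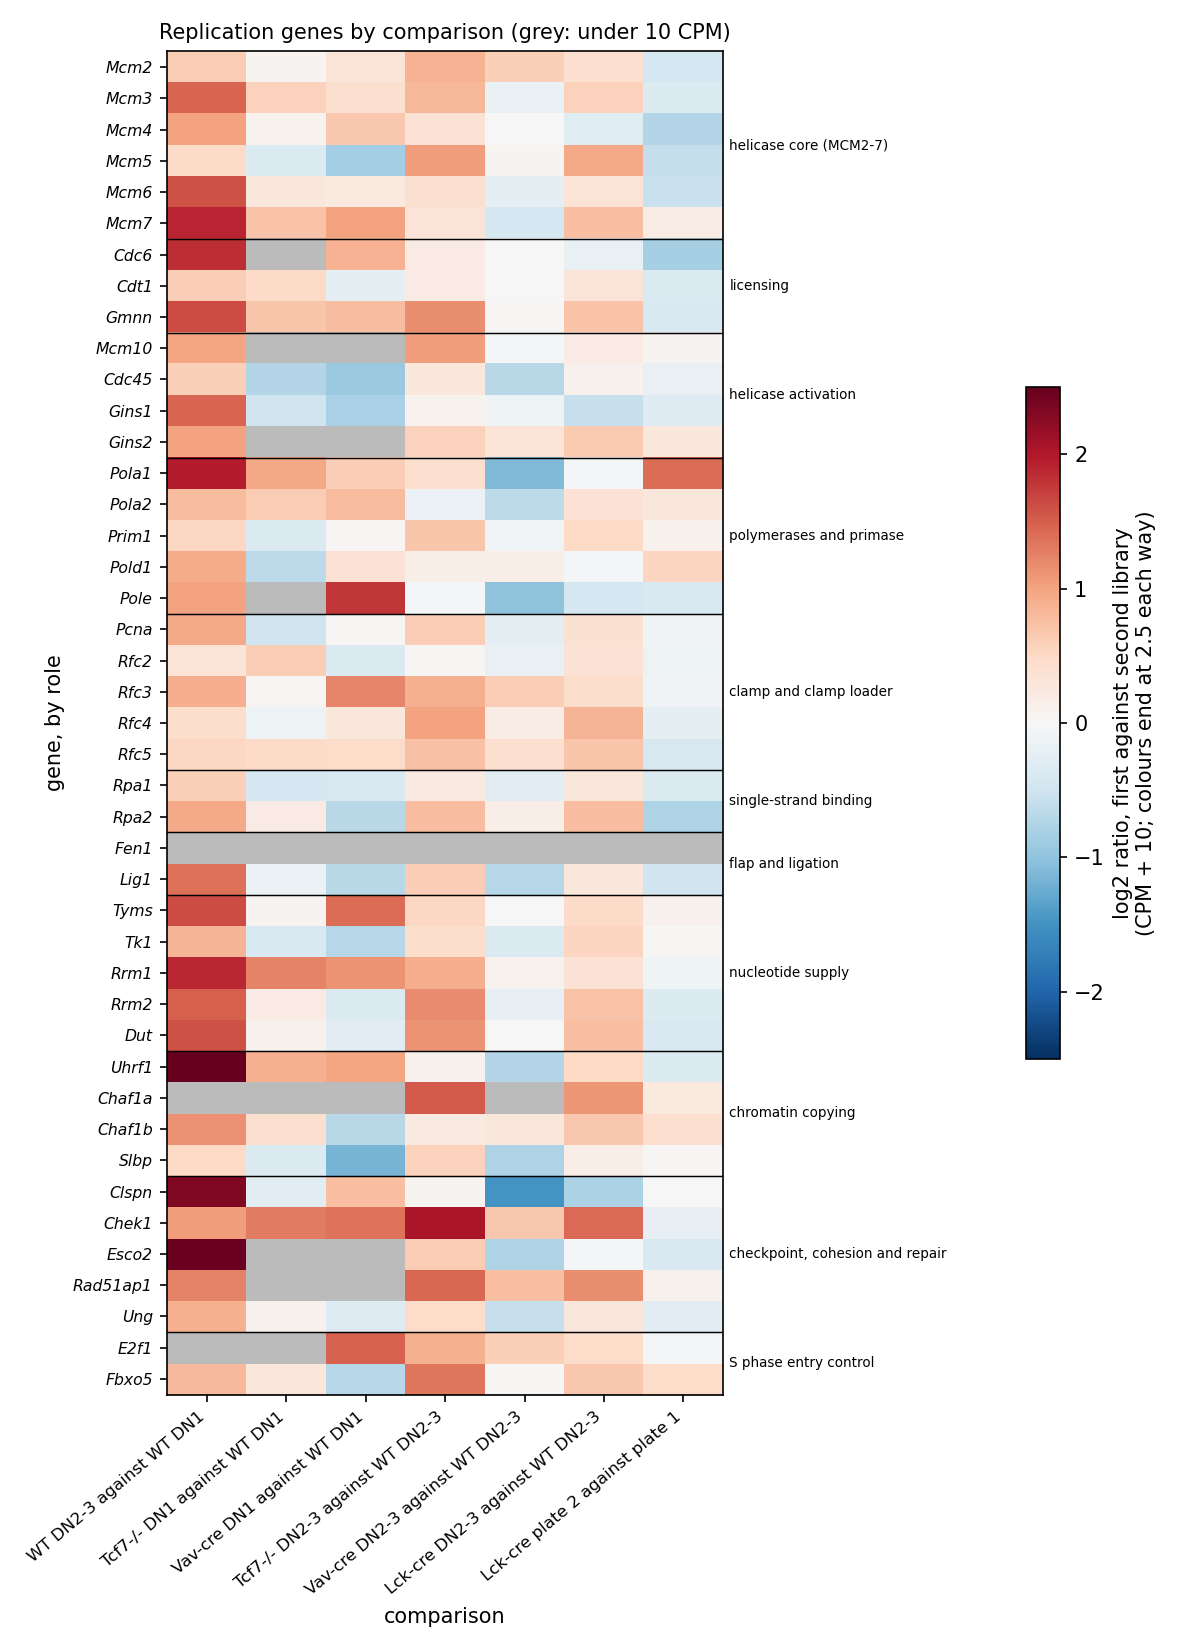
Log2 ratio of each replication gene (lines, grouped by role) in 7 comparisons (columns), from summed CPM plus 10, with red for higher and blue for lower in the library named first and grey for genes under 10 CPM in both libraries. The column of WT DN2-3 against WT DN1 is red throughout, up to 3.57 for Uhrf1, and the Tcf7-/- DN2-3 column is red or near 0.

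In the DN2-3 gate, the Tcf7-/- library had more of nearly all replication genes than WT. Of 42 measured genes 40 had a log2 ratio above 0, with a median of 0.60, while the median of all genes was -0.17. Chaf1a and E2f1, under 10 CPM in WT, were measured only through Tcf7-/- and had to lie above 0. At least 2-fold higher were 9 of the 42, against 3.19% of all measured genes, and 0 were 2-fold lower, against 10.5%. With cells weighted equally, 18 were 2-fold higher, against 5.17% of all genes, and the median was 0.96. The median is larger in size than that between both Lck-cre plates, -0.19. Its depth also differed, with a median of 70003 counts per cell against 43592 in WT, and 21.1% of its entries were counts of 1 to 5, against 14.8%. With such counts of the replication genes left out, but the library total unchanged, the summed level was 6542 CPM against 4001 CPM in WT. The Tcf7-/- cells carry other label fields than the rest and list one genome build fewer, so for them a batch and the genotype cannot be told apart. Marker lists of other cells and stages differed as well. NK markers were at a summed 2880 CPM (8 of 10 present, Ncr1 and Eomes at 0) against 1556 CPM in WT (5 of 10), DN2-3 thymocyte markers at 2853 against 4243 CPM (8 of 8 in both), and markers of the later double-positive stage at 1096 CPM (6 of 6) against 1790 CPM (5 of 6, Cd4 at 0). Their part in the result was not tested.

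The 9 genes were Chek1, Chaf1a, Rad51ap1, Fbxo5, Rrm2, Gmnn, Dut, Mcm5 and Mcm10. Chek1, the kinase that stalls the cycle when forks stall, was at 10.7 CPM in WT, 74.8 CPM in Tcf7-/-, 23.1 CPM in Vav-cre, and 48.9 and 41.1 CPM on the Lck-cre plates. WT was the lowest of the 5 libraries, and the Tcf7-/- fold was 7.02 (interval 5.30 to 9.48). Rad51ap1, a gene of DNA repair by recombination, was at 13.7, 53.9, 29.9, 40.7 and 44.9 CPM in WT, Tcf7-/-, Vav-cre and both Lck-cre plates, and WT was again the lowest. Fbxo5, the inhibitor of the anaphase-promoting complex that marks the commitment to S phase, was at 28.3, 86.5, 29.2, 42 and 61.8 CPM, with Vav-cre level with WT, and at 11.8, 16.6 and 3.23 CPM in WT, Tcf7-/- and Vav-cre DN1. Rrm2, the small subunit of ribonucleotide reductase, was at 78.2, 191, 66.6, 152 and 118 CPM, and 44.2% of the WT counts came from 1 cell. Chaf1a, the partner of Chaf1b, was at 6.63 CPM in WT and 38.1 CPM in Tcf7-/-, but shares 52.5% of its exon bases with Ubxn6 on the other strand.

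By role, the polymerase group had the lowest median log2 ratio, 0.17 over 5 genes, from -0.15 for Pola2 to 0.69 for Prim1. Pola2 and Pole were the genes below 0, Pola2 at -0.15 (207 CPM in WT, 186 CPM in Tcf7-/-) and Pole, the leading-strand polymerase, at -0.03 (24.3 and 23.7 CPM). Genes of other roles lay as near 0. Rfc2 was at 0.02, the checkpoint adaptor Clspn at 0.07 (100 and 106 CPM) and Gins1 at 0.08. E2f1, itself an E2F factor, was at 5.43 CPM in WT and 18.5 CPM in Tcf7-/-, and its highest DN2-3 level was still in only 22.6% of cells. Medians were 0.62 for the MCM ring, 0.74 for clamp and loader, 0.90 for nucleotide supply and 0.64 for checkpoint, cohesion and repair. Replication genes with E2F-type letters in their window had, as a description, a median of 0.37 over 12 genes, and matched genes without them 0.78 over 23. Between the WT gates the order was the opposite, 1.53 with and 0.88 without.

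The libraries labelled Lck-cre also stood above WT in the DN2-3 gate, with a median between those of Vav-cre and Tcf7-/-. The log2 ratio is the mean over both plates. The median of 42 genes was 0.43 (0.47 from plate 1 and 0.39 from plate 2), against -0.08 for all genes. At least 2-fold higher were 3 genes, against 0.935% of all genes, and 0 were 2-fold lower, against 3.48%. The 3 were Chek1 (1.51 and 1.31 by plate), Rad51ap1 (1.10 and 1.21) and Chaf1a (0.99 and 1.23), which were also the 3 highest in Tcf7-/- DN2-3. Both comparisons use the same WT library, where these genes were at 10.7, 13.7 and 6.63 CPM, so a low value there enters both. Chaf1a was under the limit for a measured gene in WT, so in both comparisons it had to come out higher. Clspn had the lowest ratio, -0.79, with 53.7 and 53.8 CPM on the plates. Between the plates themselves, plate 2 had 1 gene at least 2-fold higher than plate 1, Pola1, against 2.8% of all genes, and 0 lower, against 2.59%.

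For the library labelled Vav-cre in the DN2-3 gate, the median was nearer to 0 in summed counts than that between both Lck-cre plates (-0.19), while single genes differed by more. Its median over 41 genes was -0.03, against -0.14 for all genes, and 0 genes were 2-fold higher, against 5.77%. At least 2-fold lower were 3, against 10.5% of all genes. These were Clspn, at 29 against 100 CPM (fold 0.288, interval 0.236 to 0.351), Pola1, at 14.6 against 43.2 CPM, and Pole, at 7.07 against 24.3 CPM. With cells weighted equally Pola1 had a log2 ratio of 0.21, Clspn kept -1.37, and the median was 0.32, beside -0.28 between the Lck-cre plates. At these weights 4 genes were 2-fold higher, against 7.86% of all genes, and 1 lower, against 13.1%. The direction for the whole set in this library thus depended on the weighting. NK markers had a summed 9708 CPM in Vav-cre DN2-3 (6 of 10 present, with Ncr1, Klrb1c, Eomes and Tbx21 at 0) 1556 CPM in WT DN2-3 (5 of 10), and 1197 and 1288 CPM on the Lck-cre plates (2 and 3 of 10), and their part in these values was not tested.

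In the DN1 gate the replication genes of all 3 libraries lay low. The cell with the most of their counts held 29.8% of them in WT, 41.1% in Vav-cre and 10.1% in Tcf7-/-. In Tcf7-/- low counts made up a larger part than in the others. In Tcf7-/- DN1 the median over 34 genes was 0.10 against WT DN1, with 2 genes (Rrm1 and Chek1) at least 2-fold higher, against 10.4% of all genes, and 0 lower, against 5.34%. Chek1 had 0 counts in WT DN1, so it was measured only through Tcf7-/- DN1 and had to be higher there. Rrm1 was at 52.7 against 16.4 CPM, and 44.3% of the 52.7 CPM came from 1 cell. With cells weighted equally the median was 0.73, and with counts of 1 to 5 set to 0 it was -0.19. In this library 25.3% of entries of the replication genes in cells were counts of 1 to 5, against 10.4% in WT DN1 and 8.18% in Vav-cre DN1. Such counts made up 23.4% of its replication gene counts. Without them, but with the library total unchanged, the summed level was 1447 CPM against 1593 CPM in WT DN1. A fixed limit of 5 counts weighs more on shallow cells. The median kept cell had 37088 counts in Tcf7-/- DN1 and 66572 in WT DN1, and the part of depth was not tested. Early progenitor markers were at a summed 890 CPM (8 of 8 present) against 183 CPM (6 of 8) in WT DN1, and NK markers at 5116 CPM (10 of 10) against 5663 CPM (9 of 10). The part of the cell mix was not tested. Low counts of DN2-3 genes were widespread there too: Dntt was found in 96.9% and Ptcra in 72.9% of Tcf7-/- DN1 cells, at 217 and 51 CPM, against 1074 and 598 CPM in Tcf7-/- DN2-3. The same 96 cell barcodes were used on every plate, and whether reads crossed between plates was not tested.

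In Vav-cre DN1 the median over 37 genes was 0.28, with 7 genes at least 2-fold higher, against 18% of all genes, and 1 lower (Slbp), against 9.64%. Of the higher genes, Pole, Chek1 and E2f1 were under 10 CPM in WT DN1, at 7.17, 0 and 0.281 CPM. They were measured only through Vav-cre DN1 and had to be higher there. Both the share of higher genes and, with TMM scaling, which sets the bulk of genes equal, the 5 higher and 2 lower, against 14.9% and 12.7% of all genes, were near the background or below it. Markers of innate lymphoid cells were at a summed 4291 CPM (9 of 9 present) against 1835 CPM (9 of 9) in WT DN1, dendritic and myeloid markers at 2477 CPM (8 of 8) against 858 CPM (7 of 8), and NK markers at 2529 CPM (10 of 10) against 5663 CPM (9 of 10). Their part in these values was not tested. A single cell held 41.1% of all replication gene counts in this library. Pole was at 49.1 CPM against 7.17 CPM in WT DN1, with 73.7% of its counts in 1 cell. Tyms, thymidylate synthase, was at 92.4 against 28.8 CPM, with 85.3% in 1 cell. Rfc3, of the clamp loader, was at 107 against 40.1 CPM, with 41.6% in 1 cell. In WT DN1 a single cell held 29.8%, with 35 of the 43 genes, 8 of 10 NK markers and 4 of 8 dendritic and myeloid markers. Without the cell with the most of these counts in each library, the summed level was 1255 CPM in WT DN1, 1758 CPM in Tcf7-/- DN1 and 1220 CPM in Vav-cre DN1. The median log2 ratio of Vav-cre DN1 was then -0.15 and that of Tcf7-/- DN1 0.58. Whether those wells held more than 1 cell was not tested.

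To count cells rather than molecules, each cell was thinned at random to 10000 counts, and a cell with a count for at least 10 of the 43 genes was called replication-high. This class rests on detected messages and is not a count of cells in S phase. It also takes in cells with mitosis genes, as given below. Thinning left out 79 shallower cells and kept 596. It makes counts equal but not the number of genes detected in a cell. Before thinning, the median total of replication-high and other cells was 68196 and 44880 in WT DN2-3, and 75414 and 70990 in Tcf7-/- DN2-3. On Lck-cre plate 2 it was 49025 and 49274. The part of this in the shares was not tested. In WT DN2-3, 23 of 80 cells (28.8%, exact interval 19.2 to 40) were replication-high, and in Tcf7-/- DN2-3 70 of 89 (78.7%, 68.7 to 86.6). Vav-cre DN2-3 had 29 of 65 (44.6%, 32.3 to 57.5), and Lck-cre 47 of 85 (55.3%) on plate 1 and 35 of 74 (47.3%) on plate 2. Tcf7-/- DN2-3 had the highest share and WT DN2-3 the lowest of this gate.

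The class is a range and not a type: 24 Tcf7-/- and 27 WT cells of DN2-3 lay within 2 genes of the limit. Tcf7-/- stayed the highest and WT the lowest DN2-3 library under 6 other definitions of the class. Among these were a limit of 15 genes (51.7% and 13.8%), no thinning (94.6% and 68.2%) and the S phase call of scanpy (57% and 20.5%). By the S phase call the Lck-cre plates, at 53.8% and 49.4%, lay near Tcf7-/-, whose interval was 46.3 to 67.2. At a limit of 6 genes WT and Vav-cre were close, at 76.2% and 76.9%. In the DN1 gate 5 of 81 WT cells (6.17%), 18 of 73 Tcf7-/- cells (24.7%) and 2 of 49 Vav-cre cells (4.08%) were replication-high. With counts of 1 to 5 set to 0 the Tcf7-/- share was 4.29%, and that of WT 5%.

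**Figure D4:**
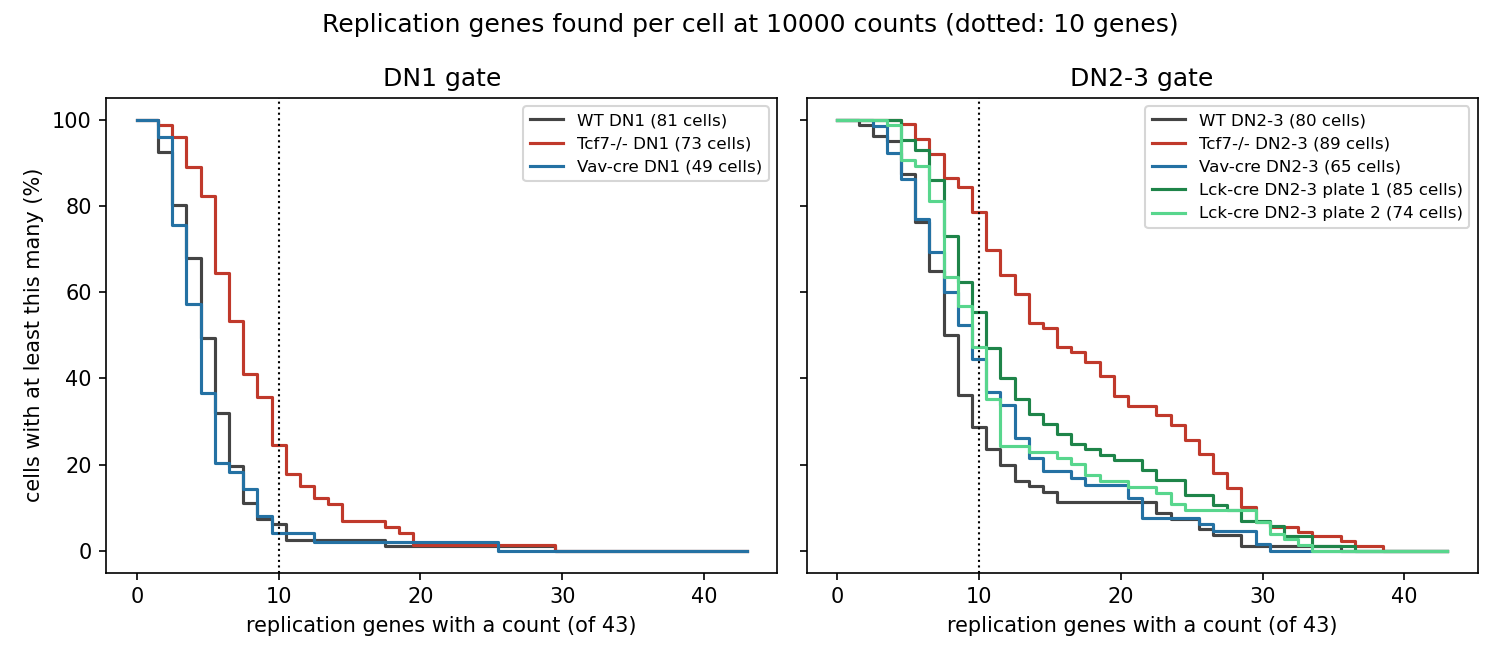
Share of cells (vertical axis, %) with at least a given number of the 43 replication genes detected after thinning to 10000 counts, for the DN1 gate (left) and the DN2-3 gate (right), with the limit of 10 genes dotted. At 10 genes Tcf7-/- DN2-3 stands at 78.7% and WT DN2-3 at 28.8%, with Vav-cre and both Lck-cre plates between them.

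The mean level in replication-high cells was 5461 CPM in WT, 6748 CPM in Tcf7-/-, 5263 CPM in Vav-cre, and 6997 and 6041 CPM on the Lck-cre plates. In the other cells it was 1818, 1803, 1730, 2245 and 2070 CPM, in the same order. The summed levels above cannot tell more S phase cells from more message in each, and these per-cell means were taken from classes made with the same genes.

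The replication-high share was not limited to cells with a given stage marker, nor was it even across them in every library. In WT DN2-3 it was 9 of 34 cells with a Ptcra count and 14 of 46 without. In Tcf7-/- DN2-3 it was 62 of 80 with and 8 of 9 without, and in Vav-cre DN2-3 18 of 45 with and 11 of 20 without. On Lck-cre plate 1 it was 26 of 55 with and 21 of 30 without, and on plate 2 23 of 48 with and 12 of 26 without. The Tcf7-/- share was above the WT share among cells with Ptcra (77.5% against 26.5%). Cpa3, a gene of the earlier DN2 stage, had a count in 39 of the 80 WT cells and 6 of the 89 Tcf7-/- cells, and 12 and 5 of these were replication-high. In Vav-cre DN2-3, 5 of 6 cells with a Cpa3 count and 24 of 59 without were replication-high. On Lck-cre plate 1 it was 19 of 27 with and 28 of 58 without, and on plate 2 9 of 21 with and 26 of 53 without. In Tcf7-/- DN1, 10 of 46 cells with at least 3 NK markers and 6 of 19 with at least 3 early progenitor markers were replication-high. At the same limit it was 9 of 28 for DN2-3 thymocyte markers and 7 of 40 for markers of innate lymphoid cells. A cell can belong to more than 1 of these classes.

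Mitosis genes, such as Ccnb1 and Top2a, were set beside the replication genes to see which part of the cycle the cells were in. A cell with at least 5 of the 29 mitosis genes after thinning was called mitosis-positive. These were 11 of 80 cells in WT DN2-3 (13.8%), 50 of 89 in Tcf7-/- (56.2%), 11 of 65 in Vav-cre (16.9%), and 23 of 85 (27.1%) and 16 of 74 (21.6%) on the Lck-cre plates. The G2M phase call of scanpy, made over all kept cells, gave other shares, with 9 of 88 cells in WT, 16 of 93 in Tcf7-/-, 13 of 76 in Vav-cre, and 7 of 91 and 6 of 87 on the Lck-cre plates. By that call Tcf7-/- did not stand above Vav-cre, and the Lck-cre plates lay below WT. However, the call gives each cell a single phase, so a cell high in both lists cannot count as S phase and G2M together. Its S phase cells numbered 18 in WT, 53 in Tcf7-/-, 25 in Vav-cre, and 49 and 43 on the Lck-cre plates. The mitosis class does not exclude replication-high cells, so the G2M shares cannot decide whether its order of libraries holds. In Tcf7-/- DN2-3, 46 of the 50 mitosis-positive cells were also replication-high, and in WT 7 of 11. Replication-high cells without the mitosis class numbered 16 in WT, 24 in Tcf7-/-, 20 in Vav-cre, and 28 and 21 on the Lck-cre plates. Among mitosis-negative cells the mean level of the replication genes was 2406 CPM in WT and 3631 CPM in Tcf7-/-, so the Tcf7-/- library was also higher outside the mitosis class. It was 2907 CPM in Vav-cre, and 3921 and 2962 CPM on the Lck-cre plates.

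**Figure D5:**
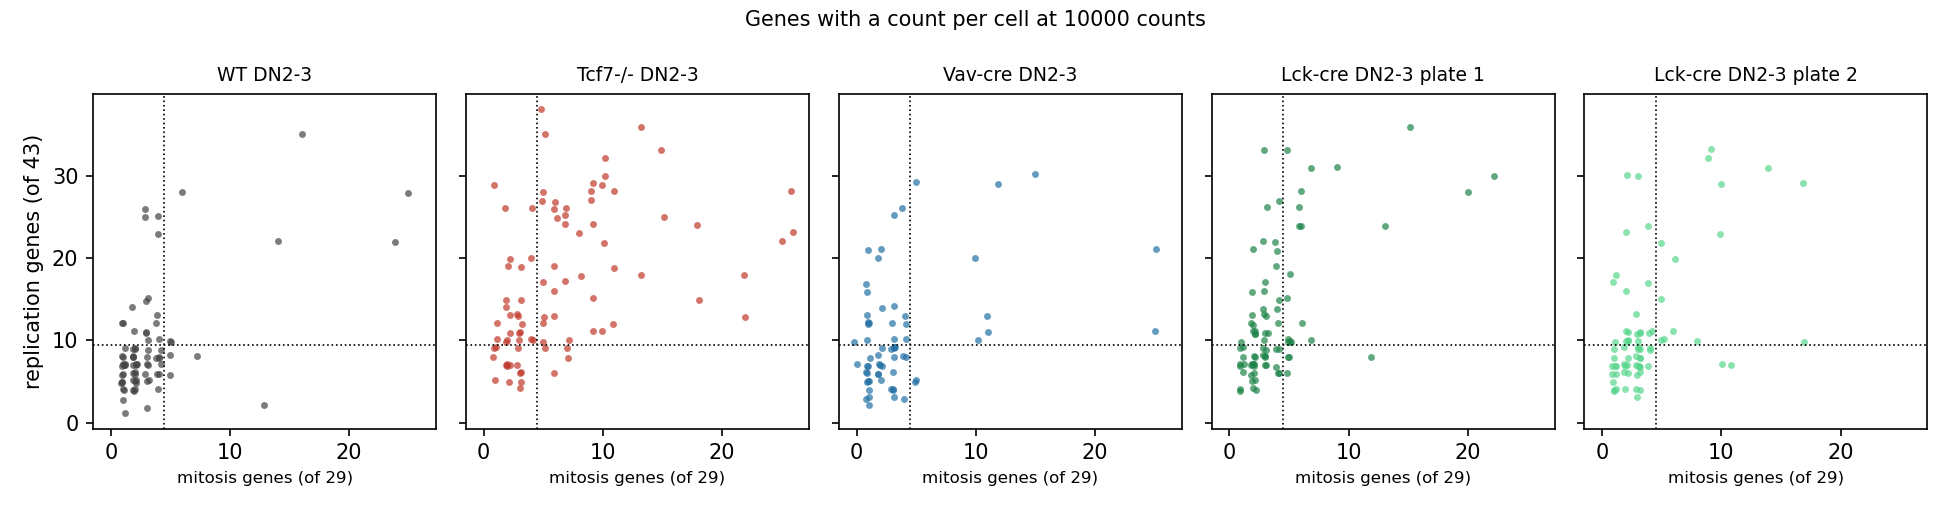
Number of the 29 mitosis genes (horizontal axis) and of the 43 replication genes (vertical axis) with a count in each DN2-3 cell thinned to 10000 counts, with dotted lines at the limits of 5 and 10 genes and points shifted slightly to show overlaps. In the upper right field there are 46 Tcf7-/- cells and 7 WT cells.

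In summed counts the mitosis list did not move with the replication list in every comparison. In Tcf7-/- DN2-3 its median log2 ratio was 0.76, beside 0.60 for the replication genes, and 10 of 28 genes were 2-fold higher, against 3.19% of all genes. In the Lck-cre libraries the mitosis median was -0.12, beside 0.43 for the replication genes. Of 26 mitosis genes there, 0 were 2-fold higher, against 0.935% of all genes, and 2 lower, against 3.48%. In Tcf7-/- DN1, 23 of 26 measured mitosis genes were 2-fold higher, against 10.4% of all genes, with a median of 1.64, beside 0.10. In the Vav-cre DN1 comparison with the same WT library, 10 of 29 mitosis genes were measured. Most of the 26 thus reached 10 CPM in Tcf7-/- DN1 only, which fixed their direction. With cells weighted equally 15 of 20 genes were 2-fold higher, against 11.1% of all genes, with a median of 1.31, under the same limit. Mitosis-positive were 12 of 73 Tcf7-/- DN1 cells against 2 of 81 in WT DN1. The level of some single genes came mostly from 1 cell: Ube2c was at 192 CPM in Tcf7-/- DN1 with 90.9% of its counts in 1 cell, and Ccnb1 at 76.5 CPM with 94.3%.

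A list of 50 other genes of replication and its control had lower medians than the 43 in each of 4 comparisons. Its median was 0.69 between the WT gates, 0.19 for Tcf7-/- DN2-3, 0.13 for Lck-cre and -0.25 for Vav-cre DN2-3. Between the WT gates 12 of 44 were 2-fold higher, against 16.3% of all genes, led by Cdca7, a chromatin factor, at 281 against 12.9 CPM. In Tcf7-/- DN2-3, 4 of 48 were 2-fold higher, against 3.19% of all genes, and 1 lower, against 10.5%. The cyclin gene Ccna2 was at 81 against 21.7 CPM in WT, and the remodeller gene Hells at 240 against 78 CPM. Prim2, the large primase subunit, went the other way, at 38.2 against 108 CPM (log2 ratio -1.29), while Prim1, the small subunit, was at 114 against 67.1 CPM. In Lck-cre DN2-3, 3 of 47 were 2-fold higher, against 0.935% of all genes, among them Ccne1 and Blm.

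Within a library, most replication genes went together from cell to cell. The median correlation of a gene with the sum of the others, on log-normalised counts, was 0.51 over 42 genes in Tcf7-/- DN2-3, 0.40 over 30 in WT, 0.37 over 29 in Vav-cre, and 0.48 over 36 and 0.44 over 32 on the Lck-cre plates. Single genes followed the set little. Pola2 was at 0.07 and Uhrf1 at 0.09 in WT, Uhrf1 at 0.11 and 0.12 on the Lck-cre plates but 0.40 in Tcf7-/-, and Chaf1b at 0.00 in Vav-cre but 0.48 in WT. Over the 88 WT DN2-3 cells, the genes outside the set that were most like its summed level, of 5396 genes considered, were Smc2, of the condensin complex, at r = 0.53, Tuba1b at 0.49 and Ptma at 0.46. Tubg1, Top2a, Dctpp1 and the replication kinase gene Cdc7 followed at 0.45, and Hells, Cenph and Ppa1 at 0.43. Cells of a library share its depth and preparation, and these correlations are descriptions.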

How the data were processed

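Per the labels' protocols, RNA of sorted cells was amplified by an adapted STRT method, and Smart-seq2 is named as well. The submitters' processing notes list TopHat2 2.1.1 for alignment, HTSeq for counting and the build mm10, with GRCm38 beside it except for Tcf7-/-. Use of strand and of molecular identifiers is not given in the sources used here. The deposited counts are whole numbers without normalization. The deposited log2 values, made by the authors from scaled counts, served only as an alternative. Of 23154 entries, 27 with a date in place of a symbol (0.141% of counts) were dropped.

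Counts of kept cells were summed per library and scaled to CPM, with numpy 2.4.6, scipy 1.17.1, pandas 2.3.3 and scanpy 1.11.5. Intervals are exact: Poisson for a count, conditional binomial for a fold and Clopper-Pearson for a share. TMM scaling used edgeR 4.0.16. The calculations were tested on simulated data. Positions and exon overlaps are from GENCODE M21 (GRCm38). No doublet caller was run on the plates of sorted cells.

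The members and lists were chosen with earlier results of these data known. For each role the member with the highest mean CPM has its value in every library. Further genes were named from the 5 highest and 5 lowest members per comparison at 20 CPM or more, and from the 3 of each in the other lists, and the rest by their range. Some genes of the wider list are not reported here.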

Additional observations from a re-analysis of the deposited data

Results flagged for a closer look

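Against WT, the values labelled Vav-cre had opposite signs in both gates in summed counts, for Pole and for the median of the replication genes. Pole had a log2 ratio of 1.78 in DN1 and -1.01 in DN2-3, and 0.57 and -0.64 with cells weighted equally. In WT DN1 Pole was at 7.17 CPM, under the limit of 10 CPM for a measured gene. It was measured there only through Vav-cre DN1, which fixed its sign in that gate. The median was 0.28 in DN1 and -0.03, close to 0, in DN2-3. It was above 0 in both gates with equal weights (0.27 and 0.32) and with TMM scaling (0.14 and 0.07). The difference between the gates was not tested, each value comes from 1 library against 1, and the DN1 values depend on a few cells.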

How the results depend on the processing

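Each median log2 ratio of the replication genes was recomputed under other choices, and is given here where it moved by more than 0.0583, the SD of the medians of both Lck-cre plates against WT. The median of all genes shifted with TMM scaling, from 0.15 to -0.02 between the WT gates, 0.13 to -0.04 in Vav-cre DN1, -0.17 to 0.03 in Tcf7-/- DN2-3, -0.14 to 0.01 in Vav-cre DN2-3 and -0.08 to 0.02 in Lck-cre. With TMM the replication medians were 0.85 between the WT gates, 0.03 in Tcf7-/- DN1, 0.14 in Vav-cre DN1, 0.83 in Tcf7-/- DN2-3, 0.07 in Vav-cre DN2-3 and 0.51 in Lck-cre. With cells weighted equally they were 0.73 in Tcf7-/- DN1, 0.96 in Tcf7-/- DN2-3, 0.32 in Vav-cre DN2-3 and 0.57 in Lck-cre, and with thinned cells 0.52 in Tcf7-/- DN1, -0.05 in Vav-cre DN1, 0.91 in Tcf7-/- DN2-3 and 0.28 in Vav-cre DN2-3. The deposited log2 values gave 0.48 between the WT gates, 0.45 in Tcf7-/- DN1, -0.06 in Vav-cre DN1, 0.87 in Tcf7-/- DN2-3 and 0.14 in Vav-cre DN2-3. With each gene's highest cell left out the medians were 1.27 between the WT gates, 0.37 in Tcf7-/- DN1, -0.19 in Vav-cre DN1 and 0.82 in Tcf7-/- DN2-3. Leaving out the cell with the most counts of these genes, a choice made after seeing the data, gave 1.39, 0.58 and -0.15 for the first 3 of these. A pseudocount of 1 CPM gave 1.46 between the WT gates and 0.36 in Vav-cre DN1. In Vav-cre DN1 the median was 0.05 with no filter on low values and 0.38 with cells of at least 2000 genes, and in Vav-cre DN2-3 that second filter gave -0.12. With counts of 1 to 5 set to 0 it was -0.19 in Tcf7-/- DN1. The other 27 medians moved by less, and without either Lck-cre plate that median ran from 0.39 to 0.47. Genes 2-fold higher in Tcf7-/- DN2-3 numbered 9 as reported, 18 with equal weights, 17 with thinned cells and 16 with TMM, against 3.19%, 5.17%, 5.75% and 5.32% of all genes. In the same order they numbered 2, 11, 8 and 2 in Tcf7-/- DN1, against 10.4%, 11.1%, 12.6% and 9.55%. In Lck-cre they numbered 3, 7, 5 and 4, against 0.935%, 1.64%, 2.3% and 1.29%. In Vav-cre DN2-3 0, 4, 2 and 0 were higher, against 5.77%, 7.86%, 8.56% and 7.4%, and 3, 1, 1 and 1 lower, against 10.5%, 13.1%, 14.5% and 8.19%. With each gene's highest cell left out, 14 were higher in Tcf7-/- DN2-3 (all genes 4.05%), 6 in Tcf7-/- DN1 (10.4%) and 5 in Lck-cre (0.941%), while Vav-cre DN1 had 2 higher (11.5%) and 6 lower (14.9%), beside 7 and 1 as reported. With counts of 1 to 5 set to 0, Vav-cre DN1 had 6 higher (18.4%) and 7 lower (14.6%), and Tcf7-/- DN1 had 1 (10.3%) and 3 (8.74%). The causes were not tested.

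Shares of replication-high cells at a limit of 6 genes were 32.1%, 64.4% and 20.4% in WT, Tcf7-/- and Vav-cre DN1, and 76.2%, 95.5%, 76.9%, 92.9% and 89.2% in WT, Tcf7-/-, Vav-cre and Lck-cre DN2-3. At 15 genes they were 6.85% in Tcf7-/- DN1 and 13.8%, 51.7%, 18.5%, 29.4% and 23% in DN2-3. Without thinning they were 29.1% and 71.9% in WT and Tcf7-/- DN1 and 68.2%, 94.6%, 72.4%, 87.9% and 79.3% in DN2-3. With counts of 1 to 5 set to 0 they were 4.29% in Tcf7-/- DN1 and 16.9%, 58%, 25.4%, 34.9% and 21.4% in DN2-3. The scanpy S phase call gave 57% in Tcf7-/- DN2-3, and thinning to 5000 counts with a limit of 7 genes gave 66.7% on Lck-cre plate 1. The other 19 shares stayed within their counting intervals. With 1 library per group, the spread between animals is unknown, and a gene with 0 counts may be at up to 1.94 CPM in Vav-cre DN1, the library with the lowest total, and 0.358 CPM in Tcf7-/- DN2-3, that with the highest.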
